A study of Drosophila melanogaster and Drosophila simulans with 122 samples.

Results

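The 200 genes described here are those whose transcripts peaked most strongly at the elongating spermatid stage (eST) in single spermatogenic cysts of D. sim WT, the control line of Drosophila simulans. They were chosen by a score, the eST mean plus 1 over the largest mean of the other stages plus 1, in FPKM (fragments relative to transcript length and to all mapped reads of a library). The 200 highest scores were kept among the 4779 genes with an eST mean of at least 5 FPKM, of 15385 D. simulans genes in all. The score chose the genes, so their course in D. sim WT cysts is a description without a test, and every test below is on libraries that the choice did not use.

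The series holds RNA-seq libraries of testes and of single cysts from both D. melanogaster and D. simulans lines in which the microRNA gene mir-983 is present, disrupted or exchanged, and only the 51 D. simulans libraries were used here. The lines were D. sim WT, the control, and D. sim KO, in which the part of dsi-mir-983a that gives the mature 5p microRNA carries a deletion and mutations, and each was a single line reared at 25 °C. Cysts came from mated males 2 to 3 days after eclosion and were picked by size under the microscope. There were 6 spermatogonium (SG), 5 late primary spermatocyte (pSC), 5 round spermatid (rST) and 6 eST cysts of D. sim WT, and 6, 5, 6 and 6 of D. sim KO. SG cells were below 8 µm across, pSC cells 22 to 25 µm and rST cells 14 to 16 µm, and eST cysts were bundles of 250 to 350 µm. Each of the 3 testis libraries per line pooled 20 to 25 pairs of testes from males 3 to 5 days after eclosion.

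A cyst is the set of germ cells that descend from 1 founder cell and develop together inside a pair of somatic cyst cells. In D. melanogaster most genes that sperm need are transcribed in primary spermatocytes, and many of these transcripts are stored and translated only after meiosis. Transcription is low in spermatids, and a small class of genes is known there whose transcripts appear after meiosis, while the nucleus condenses and the tail grows. FPKM values are relative to all RNA of a library, so a gain in a gene's own transcripts and a loss of others cannot be told apart here.

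Total counts on genes were 12980169 to 23915314 per cyst and 17225503 to 26870894 per testis library. Each cyst library was amplified from 1 cyst, so spread between cysts holds both biology and amplification. The tables give the genes as FlyBase identifiers and do not pair them with symbols, so the lists of stage and cell type markers could not be matched, the stage labels were not checked against markers, and the disrupted microRNA was not analysed. By Spearman's rank correlation over all genes, D. sim WT eST replicates 3 and 5 and D. sim KO eST replicate 5 were each most similar to an rST cyst of their own line, and every other eST cyst was most similar to another eST cyst.

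Together the 200 genes took a larger part of the transcriptome at eST than at any earlier stage. In D. sim WT they made up 4.76% to 18.6% of the summed FPKM of the eST cysts (median 7.49%, n = 6). In the other cysts of the line the share was 0.829% to 3.70% at SG, 1.89% to 2.63% at pSC and 2.95% to 3.49% at rST. The shares of eST cysts thus did not overlap with those of any other stage, which the choice of the genes favoured. For D. sim KO, whose cysts were not used for the choice, the share was 4.05% to 10.2% at eST (median 8.50%, n = 6). Earlier cysts of that line held 1.5% to 3.59% at SG, 2.34% to 2.82% at pSC and 2.87% to 3.14% at rST, again without overlap with eST. Testes held a share of 8.18% to 9.06% in D. sim WT and 8.66% to 8.95% in D. sim KO (n = 3 each), and these ranges overlapped.

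**Figure D1:**
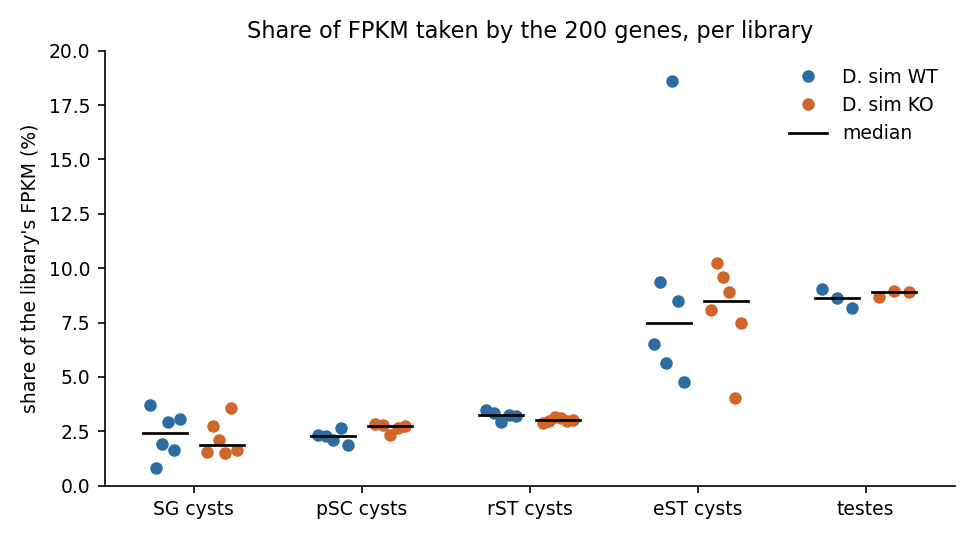
Share of each library's summed FPKM (%) taken by the 200 genes, with 1 point per library, by stage and line, and the group median as a bar. The eST cysts of both lines sit above all earlier cysts, and 1 D. sim WT eST cyst stands at 18.6%.

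The median gene of the set went in D. sim WT from 34.9 FPKM in SG cysts, 39.7 in pSC cysts and 57.4 in rST cysts to 154 in eST cysts (medians over the genes of each stage mean). The eST means ranged from 5.06 to 3827 FPKM. Most peaks were moderate. The median score was 2.25, 166 genes had a score over 2, 27 over 3 and 11 over 4, beside a median of 0.481 over all 4779 genes, which as a rule were lower at eST than at an earlier stage. The 3 lowest scores inside the set were 1.924, 1.922 and 1.920, and the 3 next below it were 1.916, 1.914 and 1.911, so the border of the set is not a gap.

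The genes fell into 3 groups by the stage with the next highest mean, and these differed in shape. For 147 genes it was rST, and their group median rose along the stages from SG (39.2 FPKM) through pSC (54.7) and rST (79.5) to eST (179). For 42 genes it was SG, and these were low in between, with medians of 17.9 FPKM for SG, 2.84 for pSC, 4.46 for rST and 62.5 for eST. For the other 11 genes it was pSC, with medians of 18.0, 51.5, 46.8 and 151 FPKM in the same order. The 42 genes in D. sim KO cysts again were low at pSC (median 6.05 FPKM) and rST (3.35) between SG (11.8) and eST (32.8).

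The peak in D. sim WT was carried unevenly by the 6 eST cysts. Replicate 4 was the highest of them for 167 of the 200 genes, against 1, 4, 5, 12 and 11 genes for replicates 1, 2, 3, 5 and 6. Its level was 4.07 times the largest other stage mean for the median gene, and 1.49 to 2.0 times in the other 5 cysts (with 1 FPKM added to both). The same ratio in D. sim KO, to the D. sim KO stage means, was 1.92 to 2.54 in 5 eST cysts and 1.10 in replicate 5, the cyst most similar to rST. No D. sim KO eST cyst took such a lead, and replicates 1, 2 and 6 were the highest for 53, 60 and 55 genes.

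**Figure D2:**
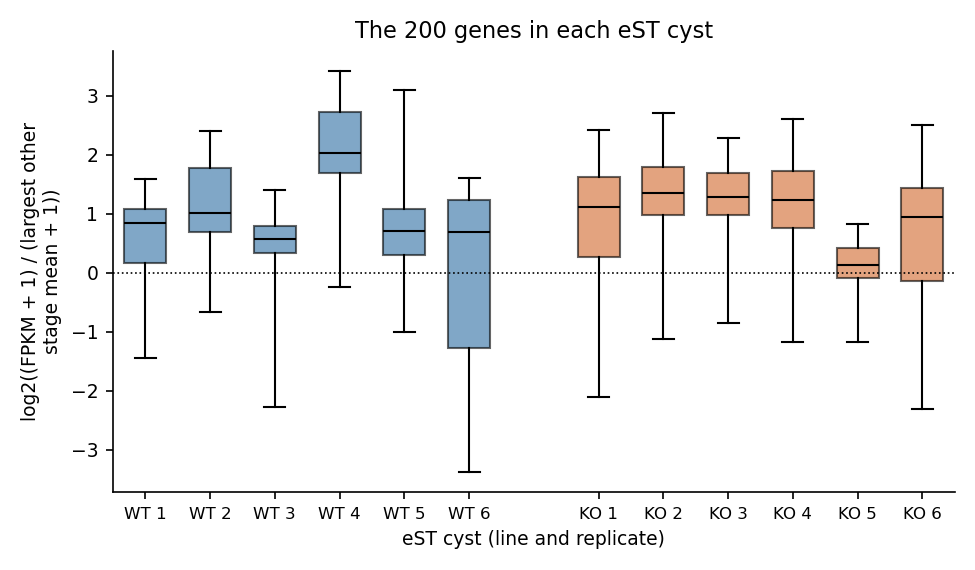
Levels of the 200 genes in each of the 6 eST cysts per line, as log2 of FPKM over the largest other stage mean of that line with 1 added to both. Boxes span the quartiles with the median as a line and whiskers from the 5th to the 95th percentile of genes, and the dotted line marks no difference. D. sim WT replicate 4 is high, D. sim KO replicate 5 lies close to the dotted line, and D. sim WT replicate 6 has the widest box.

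In 76 of the 200 genes all 6 D. sim WT eST cysts exceeded all 16 earlier cysts, beside 4.75% of the 4779 genes, and the score had used these values. Replicate 6 spread the genes most, with 118 above the largest other stage mean and 79 below 0.1 of the level in their highest eST cyst. Replicate 1 had 44 such low genes, and 40 genes were that low in both replicates 1 and 6. Of these, 12 were that low in D. sim KO eST replicates 1 and 6 as well, and no gene was low in that KO pair without being low in the WT pair. In D. sim KO too, replicates 1 and 6 had the most such low genes, 22 and 38. The share of such genes over all genes was not counted, and whether same-numbered eST cysts of the lines belong together was not tested.

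The 2 highest scores rested mostly on D. sim WT eST replicates 2 and 5. The highest score, 13.2, belonged to FBgn0194905, at 2L:8073758-8077319 on the plus strand (D. simulans r2.02, as are all positions here). Its FPKM were 2.17, 29.0, 0.463, 3.62, 63.4 and 2.71 in the 6 D. sim WT eST cysts and at most 0.887 in any earlier cyst. In D. sim KO eST cysts they were 0.0815, 0.547, 0.483, 0.0972, 0.210 and 7.10. Replicates 2 and 5 thus carried the gene in D. sim WT and replicate 6 in D. sim KO. The eST cysts overlapped with earlier ones through replicate 3 in D. sim WT and through all but replicate 6 in D. sim KO.

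FBgn0185936, at 3L:10379763-10380170 on the plus strand, had the second highest score (6.82) and the highest eST mean of the set. Its 6 D. sim WT eST cysts held 1862, 8667, 180, 1841, 9478 and 934 FPKM, and the SG cysts of the line 68.9 to 1729. In D. sim KO the order was turned, with a mean of 247 ± 352 FPKM at eST (SD, n = 6), 1280 ± 1274 at SG (n = 6), 371 ± 297 at pSC (n = 5) and 590 ± 769 at rST (n = 6). None of its 3 stage differences in D. sim KO passed the test described next, with log2 fold changes of -1.08 ± 0.84 against rST, -0.18 ± 0.87 against pSC and -1.17 ± 0.84 against SG (± SE, edgeR's quasi-likelihood test, adjusted p = 0.317, 0.882 and 0.219). Without D. sim KO eST replicate 6, at 922 FPKM, it was called lower than at rST (-2.12, adjusted p = 0.0487) and SG (-2.21, adjusted p = 0.0248). Testes held more of it than the cysts on average, 4767 to 6776 FPKM in D. sim WT and 6781 to 7340 in D. sim KO.

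More widely, a single D. sim WT eST cyst held over 50% of the summed FPKM of the 6 for 47 of the 200 genes, and this cyst was replicate 4 for 33 of them, replicate 5 for 10 and replicate 3 for 4. Of the 20 highest scores, 13 were of this kind. By the next highest stage, they were 27 of the 42 SG genes, 17 of the 147 rST genes and 3 of the 11 pSC genes. Leaving replicate 4 out of the D. sim WT means, the same rule chose 142 of the 200 genes again, and leaving out any other 1 of the 22 cysts kept 174 to 199.

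D. sim KO cysts showed whether these genes peak at eST in cysts that had no part in the choice. In their means, 183 of the 200 genes were highest at eST, beside 26.1% of the 4779 genes. The other 17 were highest at SG (12 genes), pSC (3) or rST (2). The score in D. sim KO had a median of 2.22 over the 200 genes, from 0.194 to 6.74, beside a median of 0.426 over the 4779. Of the 200 highest scores computed from D. sim KO cysts alone, 125 belonged to the set, 62.5% of each list. Of the 20 highest scores in D. sim WT, 9 were in that KO list.

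**Figure D3:**
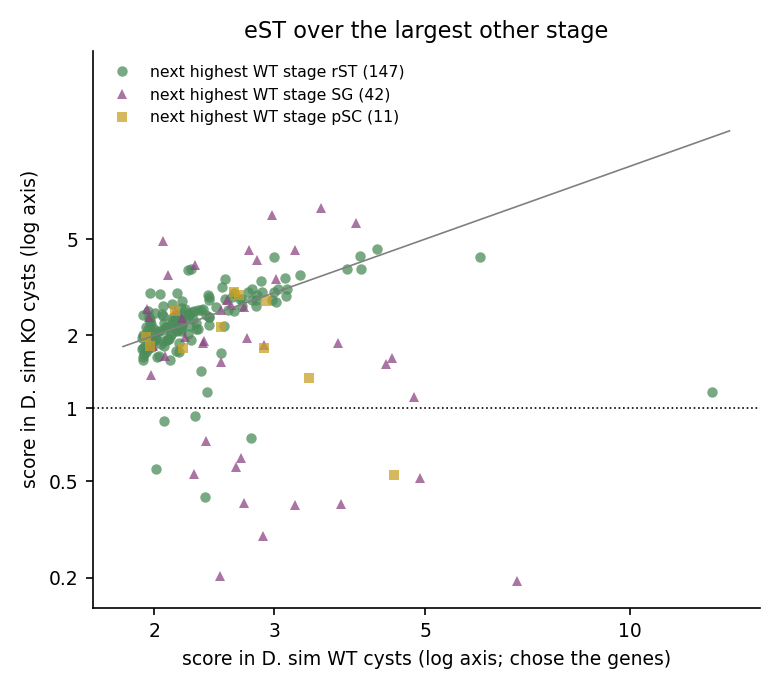
Score of each of the 200 genes (eST mean plus 1 over the largest other stage mean plus 1, in FPKM, log axes) in D. sim WT cysts, which chose the genes, and in D. sim KO cysts. The grey line marks equal scores and the dotted line a D. sim KO score of 1, below which eST is not the highest stage. Symbols show the next highest stage in D. sim WT, and 11 of the 17 genes below the dotted line are those with SG next highest.

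Read counts of the 23 D. sim KO cysts were compared in 1 fit with edgeR's quasi-likelihood test, and calls needed an adjusted p (Benjamini-Hochberg over 12500 genes) under 0.05 and a log2 fold change beyond 1 in either direction. Of the 200 genes, 171 were called higher at eST than at rST, beside 16.8% of all genes tested, and 1 was called lower, beside 15%. Against pSC, 173 were higher, beside 16.9%, and 2 lower, beside 22%. Against SG, 175 were higher, beside 25.9%, and 1 lower, beside 39%. The genes called lower than at SG became 7 without D. sim KO eST replicate 6 and 8 with limma on log2(FPKM + 1), beside 40.01% and 57.9%. The median log2 fold changes over the 190 genes of the set that were tested were 1.76 against rST, 2.17 against pSC and 3.42 against SG, beside 0.13, -0.08 and -0.45 over all genes tested. The size depended on the method. With limma on log2(FPKM + 1) the medians of the set were 1.04, 1.19 and 2.04, beside -0.17, -0.45 and -1.44 over all genes. With DESeq2 they were 2.00, 2.56 and 4.15, beside 0.33, 0.26 and 0.20. By these medians the set stood highest above SG, the earliest stage. For 42 of the 200 genes, though, SG was the next highest stage in D. sim WT.

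In 169 of the 200 genes eST was called above each of the 3 earlier stages, beside 7.3% of all genes tested. By D. sim WT shape, these were 133 of the 147 rST genes, 8 of the 11 pSC genes and 28 of the 42 SG genes. They were 30 of the 47 genes that 1 D. sim WT eST cyst dominated and 139 of the other 153, and 7 of the 20 with the highest scores. Of the other 31 genes, 21 were tested and not called above each stage, and 10 had too few counted reads to be tested. With limma on log2(FPKM + 1) in place of counts, 99 genes were called higher than at rST and 86 than at each earlier stage, beside 3.65% and 1.41% of all genes, and the median of all genes against rST was -0.17 on that scale. When TMM was exchanged for the size factors of DESeq2, 172, 174 and 178 genes of the set were called higher than at rST, pSC and SG, beside 22.9%, 24.4% and 34.2% of all genes. Without D. sim KO eST replicate 5, 171 genes were called higher than at rST and 170 than at each earlier stage, beside 19.8% and 8.66% of all genes. Among 200 genes chosen without D. sim WT eST replicate 4, 164 were called higher than at rST and 160 than at each earlier stage. Over all genes these shares were 16.8% and 7.3%.

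By the spread of single cysts, all 6 D. sim KO eST cysts lay above all 17 earlier ones in 33 of the 200 genes, beside 7.48% of the 4815 genes with a D. sim KO eST mean of at least 5 FPKM. Without eST replicate 5 this held for 97 genes, beside 12.9%.

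FBgn0181819, at 2R:6516373-6527368 on the minus strand, had the third highest score and was among those that rose in D. sim KO as well. Its D. sim KO eST cysts held 64.8, 55.6, 31.2, 64.1, 8.64 and 3.48 FPKM, and the rST cysts 4.62 to 8.25. Replicates 1 to 4 lay above all earlier cysts of the line (at most 14.6 FPKM), and replicates 5 and 6 did not. The log2 fold change against rST was 3.15 ± 0.55 (± SE, edgeR, adjusted p = 0.000152), and it was 3.35 ± 0.60 against pSC (adjusted p = 9.46e-05) and 3.52 ± 0.56 against SG (adjusted p = 4.58e-06).

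FBgn0190089, at 3R:16443430-16445199 on the minus strand, was picked after its values were seen, as a gene with even levels at eST that overlaps no other gene, so its values are a description with no test. Its 6 D. sim WT eST cysts held 859, 1110, 619, 2214, 695 and 1219 FPKM, above a highest value of 505 in earlier cysts. Its D. sim KO eST cysts held 903, 1208, 1102, 1188, 510 and 1031, above a highest earlier value of 439. The fitted log2 fold change in D. sim KO was 1.75 ± 0.28 against rST, 2.05 ± 0.30 against pSC and 4.01 ± 0.30 against SG (± SE, edgeR).

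The few genes called lower at eST in D. sim KO were FBgn0190577 against rST and pSC, FBgn0192232 against pSC and FBgn0193535 against SG. FBgn0193535, at 2L:11797682-11800105 on the minus strand, had the second lowest score in D. sim KO (0.204). It was at 0.0643, 0, 0, 0.224, 0.602 and 3.14 FPKM in D. sim KO eST cysts and at 2.0 to 16.5 in SG cysts, with overlap only through eST replicate 6. Its log2 fold change against SG was -2.39 ± 0.84 (± SE, edgeR, adjusted p = 0.0145). In D. sim WT its peak had come from eST replicate 5, at 24.5 FPKM.

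FBgn0190577 (3R:9380199-9381498, minus strand) is a case where both kinds of value disagreed. By FPKM it was high at eST in both lines, with means of 33.4 ± 31.3 in D. sim WT and 26.4 ± 14.9 in D. sim KO (SD, n = 6 each), against 3.18 ± 1.85 at rST in D. sim KO. By counts it had 5 reads on average in D. sim KO eST cysts and a log2 fold change of -1.89 ± 0.67 against rST (± SE, edgeR, adjusted p = 0.0244), and limma on FPKM gave 2.58. Against pSC it was -1.70 ± 0.69 (adjusted p = 0.0438), and this call was lost with DESeq2, with DESeq2 size factors, without the filter on low counts, with the replicate block, and without pSC replicate 1, 2, 4 or 5 or eST replicate 1, 2, 4 or 5. The call against rST was lost with the replicate block (-1.78) and without rST replicate 1 or 5. It lies 15 bp from another gene of the set, and how reads were split between the neighbours was not tested.

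The counting left out reads that overlap more than 1 gene, which touches this set. Of the 200 genes, 92 overlap another annotated gene on either strand (46%), beside 42.5% of the 4779. In 11 genes fewer than 10 reads were counted on average over the eST cysts although their D. sim WT eST means were 30.2 to 301 FPKM, and 10 of these 11 overlap another gene. Among the 107 genes with at least 10 reads and no overlapping gene, 92 were called above each earlier stage in D. sim KO. Of all genes tested, 7.3% were called so. The limit of 10 reads used the eST cysts of both lines, which favours such calls.

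With all D. sim WT cysts in the choice, the genes were spread over the chromosome arms much like other genes expressed at this stage. There were 49 on 3R (24.5%, beside 23.7% of the 4779 genes), 46 on 2R (23%, beside 21.1%), 42 on 2L (21%, beside 20.2%) and 31 on 3L (15.5%, beside 19.5%). The X chromosome, on which genes of male-biased expression are known to be scarce in Drosophila, held 30 (15%, beside 13.6%). Chromosome 4 held 0, beside 25 of the 4779, and 2 genes lay on unplaced scaffolds. When D. sim WT eST replicate 4 was left out of the choice, 40 of the 200 genes were on X in place of 30, so the part of X depends on that cyst. The median score was 2.15 to 2.33 on the 5 large arms in D. sim WT, and 1.98 on X to 2.40 on 2R in D. sim KO. Of the 30 X genes, 25 were called above each earlier stage of D. sim KO, and 28 of 31 on 3L, 39 of 46 on 2R, 41 of 49 on 3R and 34 of 42 on 2L. Over all arms together 7.3% of all genes tested were called so. That share was not computed for each arm, so the arms are not compared.

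**Figure D4:**
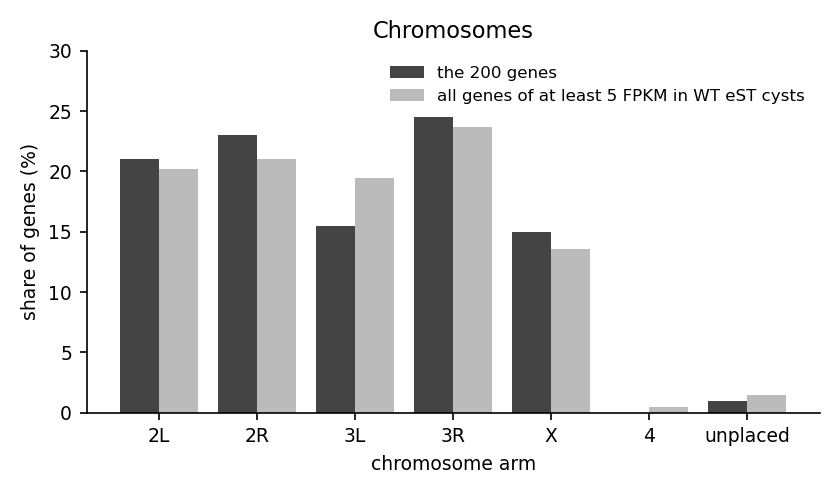
Share (%) of the 200 genes and of all 4779 genes with a D. sim WT eST mean of at least 5 FPKM on each chromosome arm. The largest gap is on 3L, with 15.5% against 19.5%.

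Some of the genes lay side by side. For 42 of the 200 (21%) another gene of the set lay within 10 kb, beside 7.08% of the 4579 other genes with an eST mean of at least 5 FPKM. A gene was not counted as near itself, so the other genes had slightly more set genes to be near. The 42 genes formed 19 groups, of which 16 had 2 genes, 2 had 3 and 1 had 4. The group of 4 spans 2R:5066509-5072770, with D. sim WT scores of 2.40 to 3.38 and eST means of 32.7 to 1468 FPKM, and some of its genes overlap. The groups of 3 span 2R:15168524-15176698, with scores of 2.62 to 3.12, and 3L:19468718-19473327, with 1.96 to 3.13. All genes of these last 2 groups also had D. sim KO scores above 2. Among the pairs, FBgn0269535 and FBgn0195537 lie within 2L:18618981-18619815, and FBgn0191785 and FBgn0190577 are 15 bp apart. How many of the 42 genes overlap one another was not counted, so the 21% is not a count of separately expressed genes. The genes of the set spanned 2427 bp of genome at the median, introns included, beside 1621 bp for the 4779 genes, and 16.5% were shorter than 1000 bp, beside 24.7%.

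Levels at eST differed little between the lines for most of the genes, and since D. sim WT values chose them, a lower mean in D. sim KO is favoured by the choice and was not tested. The log2 ratio of the eST means, D. sim KO over D. sim WT with 1 FPKM added to both, had a median of -0.19 over the 200 genes, with quartiles of -0.43 and 0.06, beside -0.02 over the 4779 genes. D. sim KO was lower in 138 genes. The ratio was below -1 in 26 genes and above 1 in 0. Without D. sim WT eST replicate 4 in the means the median turned to 0.09, with D. sim KO lower in 80 genes, below -1 in 23 and above 1 in 16.

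The lowest ratio, -6.10, was that of FBgn0192232, at 3R:15475281-15477289 on the plus strand. Its D. sim WT eST cysts held 14.9, 6.01, 432, 12.5, 46.8 and 8.22 FPKM, and all D. sim KO eST cysts between 0.0963 and 0.459. D. sim KO was lower than D. sim WT at the earlier stages too, with means of 1.47, 1.46 and 0.608 FPKM at SG, pSC and rST against 16.8, 9.17 and 16.2. In testes the gene was at 24.2 to 26.3 FPKM in D. sim WT and 15.8 to 18.2 in D. sim KO, and the lines did not overlap there either. Against SG in D. sim KO it was -1.11 (edgeR, adjusted p = 0.0697), and it was called lower without D. sim KO SG replicate 4 (-1.24) or 6 (-1.32).

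The highest ratio, 0.82, was that of FBgn0268230, at 3R:4975289-4975800 on the plus strand, which overlaps another gene and had no counted reads. Its D. sim WT eST cysts held 93.3, 98.8, 12.5, 2.68, 8.54 and 65.3 FPKM and its D. sim KO eST cysts 136, 141, 34.0, 126, 34.9 and 27.9. The lines overlapped. Here D. sim WT eST replicate 4, the highest cyst for most of the set, was the lowest. In testes the gene was at 3.52 to 4.94 FPKM in D. sim WT and 0.0840 to 0.109 in D. sim KO.

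FBgn0269503, at 2R:10251606-10255278 on the plus strand, had the next highest ratio (0.74) and was 1 of the 12 genes that were low in eST replicates 1 and 6 of both lines. It was at 0.217, 16.6, 6.26, 36.9, 1.78 and 0.164 FPKM in D. sim WT eST cysts and at 0.194, 39.3, 24.3, 35.2, 8.00 and 0.532 in D. sim KO. The rST cysts lay between, at 3.74 to 4.45 FPKM in D. sim WT and 2.41 to 4.97 in D. sim KO. Its log2 fold change against rST in D. sim KO was 3.01 ± 0.93 (± SE, edgeR, adjusted p = 0.0111), and it was not called with limma on FPKM (adjusted p = 0.281) or with the replicate block (2.58, adjusted p = 0.0877).

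Testes, which were used by neither the choice nor the KO comparison, contain all stages together with somatic cells and later sperm. The 200 genes had a median of 116 FPKM in D. sim WT testes, from 2.18 to 5610. In 73 of the 200 (36.5%) the testis mean exceeded the D. sim WT eST mean, beside 54.9% of the 4779 genes. The log2 ratio of testis to eST mean (1 FPKM added) had a median of -0.38, beside 0.16 for the 4779 genes. In 19 genes the testis mean was under 0.25 of the eST mean, and in 4 it was over 4 times as high. In bulk testis fewer cells of a stage and less RNA per cell cannot be told apart, and testis and cyst libraries were made by different methods.

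D. sim KO was compared with D. sim WT in testes with edgeR's quasi-likelihood test on 12534 genes. Of the 200 genes, 16 were called, 8 higher and 8 lower in D. sim KO (8%), beside 10.2% of all genes tested (4.42% higher and 5.81% lower). This share is near that of all genes. The log2 fold change had a median of -0.08 over the 191 genes of the set that were tested, beside 0.01 over all genes, and 157 genes were within 0.5 of 0. The 16 called genes were 7 of the 42 SG genes and 9 of the 147 rST genes. With limma on log2(FPKM + 1), 8 were called, 1 higher and 7 lower (4%), beside 4.1% of all genes.

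**Figure D5:**
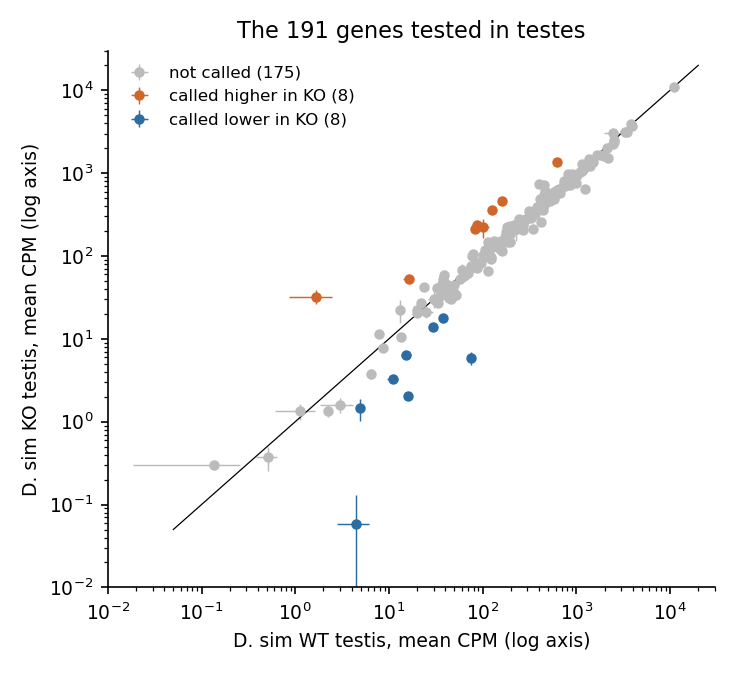
Mean CPM (read counts scaled to library size by TMM, log axes) of the 191 genes of the set tested in testes, D. sim WT against D. sim KO (n = 3 each), with SD as bars that run to the axis where the SD exceeds the mean. Most points lie on the line of equal levels, with 8 called genes above and 8 below.

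The genes with the largest falls were FBgn0194073 and FBgn0183559. FBgn0194073, at 2L:4767628-4768499 on the minus strand, had 44, 110 and 122 counted reads in D. sim WT testes and 1, 3 and 0 in D. sim KO testes. The groups were far apart, and the fitted log2 fold change of -6.09 ± 0.53 (± SE, edgeR, adjusted p = 1.22e-06) rests on 4 reads in D. sim KO. The eST cysts held 8.93 to 20.8 FPKM in D. sim WT and 0.0415 to 0.209 in D. sim KO. D. sim WT values at eST chose the gene, so a lower level in D. sim KO there is favoured by the choice and was not tested. Means at SG, pSC and rST were 2.84, 5.30 and 5.84 FPKM in D. sim WT. In D. sim KO they were 0.0289, 0.211 and 0.158, and this difference was not tested either. At SG the gene was at 0.621 to 6.10 FPKM in 5 D. sim WT cysts and at 0 in replicate 2.

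FBgn0183559, at 2R:20332144-20335580 on the plus strand, was at 20.8, 20.3 and 19.7 FPKM in D. sim WT testes and at 1.22, 1.55 and 1.84 in D. sim KO testes. Its log2 fold change was -3.71 ± 0.11 (± SE, edgeR, adjusted p = 5.17e-11). It rose at eST in D. sim KO all the same, with a log2 fold change of 2.04 ± 0.53 against rST (adjusted p = 0.00364), from a mean of 0.785 to 2.17 FPKM. In D. sim WT the same means were 2.90 and 8.76 FPKM.

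The largest rises were those of FBgn0195537 and FBgn0188568. Both overlap other genes, and how many of their reads the counting left out was not measured. FBgn0195537, at 2L:18619095-18619815 on the plus strand, had 43, 21 and 32 counted reads in D. sim WT and 1064, 602 and 540 in D. sim KO testes (log2 fold change 4.34 ± 0.22, SE, edgeR, adjusted p = 6.39e-09). Its FPKM differed far less, with 175, 317 and 171 against 325, 306 and 338, and overlapped. FBgn0188568, at X:10209584-10211054 on the plus strand, was at 14.1, 16.3 and 12.9 FPKM in D. sim WT and 46.4, 47.5 and 46.4 in D. sim KO testes, and its log2 fold change was 1.70 ± 0.09 (SE, adjusted p = 1.44e-08). At eST the D. sim WT cysts were at 2.92, 28.8, 0.569, 1.33, 52.8 and 5.02 FPKM. Of the D. sim KO eST cysts, 5 of 6 were at most at 0.461 and replicate 6 was at 10.4, so the lines overlapped. D. sim WT values at eST chose the gene, so a lower mean in D. sim KO there is favoured by the choice and was not tested.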

How the data were processed

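The authors trimmed reads with Trimmomatic 0.36, mapped them with HISAT2 2.2.0 to D. simulans r2.02, and deposited FPKM values per gene from StringTie 2.1.4 and raw counts per gene from HTSeq 0.6.0, which ignored strand and left out reads that overlap more than 1 gene. The deposited FPKM gave stage means, scores and shares, and 1 gene listed on 2 lines in some libraries had its FPKM added. The deposited counts were normalized by TMM and tested, two-sided, with edgeR 4.0.16 (R 4.3.3) on genes of over 5 normalized counts on average in at least 1 group, with 1 fit over the D. sim KO cysts and 1 over the testes. Calls needed a log2 fold change beyond 1 in either direction and an adjusted p under 0.05. SE of fold changes were derived from the test's F value. The tests were tested on simulated data.

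The choice of the 200 genes and the lists were made with earlier results of these data known. The files do not pair D. simulans identifiers with symbols (0 of 15385 matched), so the marker lists were not used, roles of the genes are not given, and at most 2 genes in each direction are named in each comparison, by highest score, highest eST mean, lowest score in D. sim KO, extreme ratio of D. sim KO to D. sim WT and largest testis change, besides those said to be chosen otherwise. No D. simulans genome was used here, so no sequence is shown. Alternatives were DESeq2 1.42.0, its size factors, no filter or one of over 50 normalized counts, a replicate block, only the 2 stages compared, limma 3.58.1 on log2(FPKM + 1), each replicate left out, and, for the choice, a pseudocount of 0.1, minimum means of 1 and 10 FPKM, medians, and CPM. Chosen after seeing the data were the sets without D. sim WT eST replicates and without overlapping genes. Python 3.11.15 with pandas 2.3.3 and matplotlib 3.10.9 was used.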

Additional observations from a re-analysis of the deposited data

Results flagged for a closer look

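Of 34 groups of 5 or 6 cysts checked for 1 value far from the others, 9 stood out. Chance alone gives about 1 in 20, but the genes checked were named for extreme values and 5 of the 9 are D. sim WT eST groups that the choice used, so nothing is read from the number. The share of FPKM taken by the 200 genes was 18.6% in D. sim WT eST replicate 4, with the next cyst at 9.38%. In the same replicate FBgn0181819 was at 256 FPKM with the next cyst at 57.9, and FBgn0183559 at 24.8 with the next at 11.01. FBgn0192232 was at 432 FPKM in D. sim WT eST replicate 3, with the next at 46.8. FBgn0193535 was at 24.5 FPKM in D. sim WT eST replicate 5, with the next at 8.12. In D. sim KO eST replicate 6, 4 genes stood out: FBgn0194905 at 7.10 FPKM with the next at 0.547, FBgn0185936 at 922 with the next at 345.4, FBgn0193535 at 3.14 with the next at 0.602 and FBgn0188568 at 10.4 with the next at 0.461. Whether the part of these cysts in the results is technical was not tested.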

How the results depend on the processing

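With limma on log2(FPKM + 1) in place of counts, the number of the 200 genes called higher at eST in D. sim KO was 99 against rST and 86 against each earlier stage, and 8 were called in testes. Medians in place of means kept 118 of the 200 genes in the choice. Without D. sim KO eST replicate 5, 97 genes had eST cysts above all earlier cysts. The median log2 ratio of D. sim KO to D. sim WT at eST turned from -0.193 to 0.0908 without D. sim WT eST replicate 4. For these the cause was not tested. FBgn0190577 turned to 2.58 against rST and 2.18 against pSC with limma on FPKM. The call of FBgn0195537 in testes was lost with limma on FPKM (0.60), those of FBgn0269503 with limma against rST (0.88) and pSC (1.06) and with the replicate block against rST (2.58), and that of FBgn0192232 against pSC with limma (-0.95). Genes called lower than at SG went from 1 to 8 with limma and 7 without D. sim KO eST replicate 6, and those called lower than at rST or pSC were 0 to 2 each under all alternatives. D. sim KO was the lower line at eST in 138 genes, and in 80 without D. sim WT eST replicate 4. The other counts of the 200 genes called higher at eST, called in testes or kept in the choice stayed within 1.5 times their value, as a share where fewer genes were counted. Over all genes, those called above each stage went from 913 to 1457 with DESeq2, 1418 with its size factors and 149 with limma. Those called higher went with limma from 2104 to 387 against rST, 2108 to 414 against pSC and 3238 to 1401 against SG, and with DESeq2 to 3163 against pSC. In testes the 554 higher and 728 lower became 191 and 232 with limma and 344 and 415 with the filter of over 50 normalized counts.

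Leaving out 1 replicate gave 163 to 171 genes called higher than at rST, 168 to 174 than at pSC and 174 to 176 than at SG. Of all genes tested, the shares called higher were then 14.5% to 19.8%, 15.3% to 18.9% and 24.5% to 27.9%. Called above each stage were 160 to 170 genes, beside 5.64% to 8.66% of all genes. In testes 15 to 17 were called, beside 9.02% to 10.2%. The choice kept 142 to 199 genes, where the lowest was without D. sim WT eST replicate 4. With a pseudocount of 0.1 the choice kept 191 genes, with minimum means of 1 and 10 FPKM 181 and 190, with CPM 138, and without D. sim WT eST replicates 3, 4 and 5 together 135.

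The replicate numbers showed no clear pairing of the libraries, and D. sim WT cysts were not checked for it. In D. sim KO cysts, same-numbered pairs of different stages had a median correlation of deviations of -0.01, with 7 of 33 over 0.1. Of the pairs with different numbers, 25 of 165 were over 0.1. In testes 0 of 3 same-numbered pairs were over 0.1, beside 1 of 6 others, too few to tell. With the replicate number as a replicate block, 159, 168 and 174 genes were called higher than at rST, pSC and SG, beside 14.8%, 14.7% and 25.4% of all genes, 157 than at each, beside 6.58%, and 16 in testes, beside 10.6%. Genes with few counted reads, or whose peak rests on 1 cyst, are the least certain.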
